A study of Mus musculus with 2 samples.

Results

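The Mir106b-25 and Mir106a-363 clusters are paralogs of the Mir17 cluster, and together they hold 9 of the 1638 miRNA features in the mouse small RNA-seq data analysed here. The members were chosen by name. Mir106b, Mir93 and Mir25 form the first cluster, and Mir106a, Mir18b, Mir20b, Mir19b-2, Mir92-2 and Mir363 form the second. All 9 were listed. There was 1 library of E14 mESCs, a line of mouse embryonic stem cells labelled wild-type. The study's methods describe feeder-free culture of naive E14 cells with LIF and inhibitors, but neither they nor the labels say that this library came from such a culture. The other library was made from male E15.5 prospermatogonia, germ cells found in the testis before birth, which the labels call primordial germ cells (PGCs) and wild-type. By the methods, these embryos came from C57Bl/6J females and carried an Oct-4/GFP transgene, a reporter that marks germ cells, and how many embryos were pooled is not given in the sources used here. With 1 library per condition nothing shows how replicates would vary, and no test was possible.

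In each cluster, a single transcript is cut into several hairpins, and each hairpin releases a mature miRNA that guides Argonaute proteins to partly matching messenger RNAs. Bases 2 to 8 of the mature miRNA, the seed, set most of this pairing, so miRNAs from different loci that share a seed are expected to share many targets. The miR-17 seed is known for repressing the cell cycle inhibitor Cdkn1a, and the miR-25/92 seed for repressing the pro-apoptotic Bim. In mice, loss of the Mir17 cluster is lethal around birth, whereas loss of either paralogous cluster alone is tolerated. These clusters are well known for their activity in pluripotent and other proliferating cells.

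The 9 members fall into 4 seed families. The mature sequences of the arm usually taken as the guide are printed to show which members could be told apart by their reads, with the seed in capitals. They were taken from RefSeq (GRCm38.p6), where all 9 members matched. The miR-17 seed is carried by Mir106b, Mir93, Mir106a and Mir20b, and by Mir17 and Mir20a of the Mir17 cluster.
miR-106b-5p: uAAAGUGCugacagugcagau
miR-93-5p: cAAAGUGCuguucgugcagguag
miR-106a-5p: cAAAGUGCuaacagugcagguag
miR-20b-5p: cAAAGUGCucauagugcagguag
miR-17-5p: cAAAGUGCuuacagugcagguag
miR-20a-5p: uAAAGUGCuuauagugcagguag
The miR-18 seed is carried by Mir18b and by Mir18 of the Mir17 cluster, whose guide RefSeq calls miR-18a-5p.
miR-18b-5p: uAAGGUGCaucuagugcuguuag
miR-18a-5p: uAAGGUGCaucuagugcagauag
The miR-25/92 seed is carried by Mir25, Mir363 and Mir92-2, and by Mir92-1 of the Mir17 cluster.
miR-25-3p: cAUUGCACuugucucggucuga
miR-363-3p: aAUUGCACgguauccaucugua
miR-92a-3p: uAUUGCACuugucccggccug
The miR-19 seed is carried by Mir19b-2, and by Mir19a and Mir19b-1 of the Mir17 cluster.
miR-19b-3p: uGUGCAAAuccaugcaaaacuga
miR-19a-3p: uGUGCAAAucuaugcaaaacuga

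Within a family the sequences are close. miR-106a-5p differs from miR-17-5p at 1 of 23 bases and from miR-20b-5p at 2, and miR-18b-5p differs from miR-18a-5p at 2. miR-93-5p and miR-106b-5p differ at 5 of the 21 bases compared. In contrast, miR-25-3p and miR-363-3p share the seed but differ at 13 of 22 bases. For Mir92-2 and Mir19b-2 the mature miRNA is identical to that of a hairpin in the Mir17 cluster, and the copies differ only outside it. The next 6 bases of each hairpin, in capitals, show where the copies part.
Mir92-1: uauugcacuugucccggccugUUGAGU
Mir92-2: uauugcacuugucccggccugAGGAAG
Mir19b-1: ugugcaaauccaugcaaaacugaCUGUGG
Mir19b-2: ugugcaaauccaugcaaaacugaUUGUGG
The longest stretch that the hairpins share is 22 nt for Mir92-1 and Mir92-2 and 25 nt for Mir19b-1 and Mir19b-2. How reads with several matches were assigned is not given in the sources used here. Values of Mir92-1, Mir92-2, Mir19b-1 and Mir19b-2, and sums that include them, are therefore uncertain. The sums of the Mir106a-363 and Mir17 clusters are also given without the copies. Handling of mismatches is likewise not given, which limits the separation of Mir106a from Mir17. Each feature spans a whole hairpin, so reads of its arms were not separated.

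The Mir106b-25 cluster lies on the minus strand of chromosome 5 (GRCm38), from 138165321 to 138165818, a span of 498 bases. All 3 hairpins are in intron 13 of Mcm7, which encodes a subunit of the replicative helicase, counted in the main transcript with 15 exons. Mir93 and Mir25 also lie in an exon of Mcm7-202, a transcript with a retained intron. The Mir106a-363 cluster lies on the minus strand of chromosome X, from 52741693 to 52742567, a span of 875 bases. Its first hairpin, Mir106a, overlaps the last exon of the noncoding gene Kis2 by 5 bases, and the other 5 hairpins are in no other annotated gene. The Mir17 cluster, with 6 hairpins, is exonic to Mir17hg and spans positions 115043671 to 115044506 of chromosome 14. Mcm7 is a known target of E2F factors, and the RefSeq window of 300 bases around its start was searched on both strands for TTTCGCGC and TTTGGCGC, letters of the E2F motif. It holds 1 match to TTTCGCGC, which begins at base 17 of the transcript and is in capitals in the 30 bases at chr5:138171849-138171878 on the minus strand.
Mcm7: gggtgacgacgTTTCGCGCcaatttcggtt
Of 32851 promoter windows of this length, 0.813% hold either motif. The window at a second start of Mcm7 and that of Kis2 hold neither, which says only that these letters are not there. No promoter was measured in these data.

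The deposited log2 values correspond to whole reads, which were recovered, and levels are given in RPM, reads per 1000000 reads of the library. The library totals that follow are 449643 reads for mESCs and 2869578 for prospermatogonia, a 6.38-fold difference, so that 1 read equals 2.22 RPM in the former and 0.348 RPM in the latter. Of these, 24.6% were on miRNA features in mESCs (110455 reads) and 5.41% in prospermatogonia (155237 reads), so sums are given both per library and as shares of miRNA reads. Of the marker features, those of pluripotent cells held 24.7% of miRNA reads in mESCs and 3.25% in prospermatogonia, all 12 of them above 3 reads in mESCs and 6 in prospermatogonia. Those of the X-linked male germ cell cluster, 8 of which were listed, held 6 reads in mESCs and 6425 in prospermatogonia. Of the markers of other cells in prospermatogonia, the erythroid Mir451 and Mir144 had 1 and 0 reads, Mir142 and Mir223 of blood cells had 124 and 0, the endothelial Mir126 had 40 reads, and the 6 mesenchymal features summed to 262, of which Mir143 had 260 and 4 features had 0. Mir202, a marker of Sertoli cells, had 57 reads against 0 in mESCs, and Mir140 of gonadal soma had 558 reads (194 RPM) against 280 (623 RPM). In mESCs, Mir142 had 400 reads and the other 3 blood features 0, Mir126 had 255, and the mesenchymal features summed to 1441, most of them on Mir143 with 1393. The part of such cells in the results was not tested.

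Every member with more than 4 reads was lower per library in prospermatogonia than in mESCs, and the Mir106a-363 cluster differed more than the Mir106b-25 cluster. Of the 9 members, 8 had at least 10 RPM in 1 or more libraries, the minimum for a log2 ratio, and all 8 had it in both. On the scale of log2((RPM + 1)/(RPM + 1)), all 8 were at least 2-fold lower in prospermatogonia. This is near the background, since 80.8% of the 203 features above the same minimum were at least 2-fold lower, with a median log2 ratio of -2.52. The median was -1.74 for the 3 members of Mir106b-25, which is above that of all features, and -4.16 for the 5 members of Mir106a-363 above the minimum, which is below it. When the libraries were scaled to their miRNA reads instead, a shift of 2.18 on the log2 scale, 4 of the 8 members were at least 2-fold lower, beside 39.9% of the 203 features. None of the members was then at least 2-fold higher, beside 20.2% of the features. The 4 members were Mir106a, Mir18b, Mir20b and Mir363, all of the Mir106a-363 cluster. In such bulk samples, fewer cells that express a miRNA and less of it in each cell cannot be told apart.

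Mir25 was the most abundant member in both libraries. It had 1738 reads (3865 RPM) in mESCs and 4250 reads (1481 RPM) in prospermatogonia. Its level was 2.61-fold lower in prospermatogonia per library (95% interval 2.47 to 2.76, from the Wilson interval of the reads and for counting error only, because PCR copies of a molecule are counted as reads of their own). As a share of miRNA reads the direction was the opposite, 1.57% in mESCs (1.50% to 1.65%) and 2.74% in prospermatogonia (2.66% to 2.82%). Among all features, Mir25 ranked 12 in mESCs and 5 in prospermatogonia.

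Mir93, the next most abundant, had 1011 reads (2248 RPM) in mESCs and 1238 reads (431 RPM) in prospermatogonia, which is 5.21-fold lower (4.80 to 5.66). Its log2 ratio of -2.38 was close to the median of all features. Its share of miRNA reads was 0.915% in mESCs (0.861% to 0.973%) and 0.797% in prospermatogonia (0.754% to 0.843%), so these intervals did not overlap. Mir106b was the least abundant hairpin of its cluster, with 117 reads (260 RPM) in mESCs and 221 reads (77.0 RPM) in prospermatogonia. It was 3.38-fold lower per library (2.70 to 4.23), and its shares of 0.106% in mESCs (0.0884% to 0.127%) and 0.142% in prospermatogonia (0.125% to 0.162%) had overlapping intervals. Mir93 thus differed more between the libraries than Mir25 and Mir106b, whose fold intervals overlap, although all lie in the same intron of Mcm7. Mir25 made up 60.6% of the cluster's reads in mESCs and 74.4% in prospermatogonia, Mir93 made up 35.3% and 21.7%, and Mir106b 4.08% and 3.87%.

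The Mir106a-363 cluster contained the members that were lowest in prospermatogonia relative to mESCs. Mir363, its last hairpin and a carrier of the miR-25/92 seed, had 657 reads (1461 RPM) in mESCs and 142 reads (49.5 RPM) in prospermatogonia, which is 29.5-fold lower (24.6 to 35.4). Of the 203 features, 21 had a more negative log2 ratio than its -4.86. Scaled to miRNA reads, its log2 ratio was -2.70, and it went from rank 26 in mESCs to rank 67 in prospermatogonia.

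The 3 members at the 5′ end of the cluster had ratios near each other. Mir106a, with the miR-17 seed, had 242 reads (538 RPM) in mESCs and 89 reads (31.0 RPM) in prospermatogonia, 17.4-fold lower (13.6 to 22.1). Mir18b had 128 reads (285 RPM) in mESCs and 43 reads (15.0 RPM) in prospermatogonia, 19.0-fold lower (13.5 to 26.8). Mir20b, which also carries the miR-17 seed, had 303 reads (674 RPM) in mESCs and 99 reads (34.5 RPM) in prospermatogonia, 19.5-fold lower (15.6 to 24.5). The counting intervals of these 3 folds overlap, and that of Mir363 overlaps with the interval of Mir18b only. Scaled to miRNA reads, the log2 ratios were -1.93 for Mir106a, -2.05 for Mir18b and -2.10 for Mir20b.

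Of the hairpins with a copy in the Mir17 cluster, Mir92-2 stood apart from these 4, and Mir19b-2 had too few reads to compare. Mir92-2 had 695 reads (1546 RPM) in mESCs and 1087 reads (379 RPM) in prospermatogonia, only 4.08-fold lower (3.71 to 4.49), and its log2 ratio scaled to miRNA reads was 0.15. Mir92-1, which carries the identical mature miRNA, had 5244 reads in mESCs and 29587 in prospermatogonia, and whether some of its reads were assigned to Mir92-2 was not tested. Mir19b-2 had 4 reads (8.90 RPM) in mESCs and 0 reads in prospermatogonia, where 0 of 155237 miRNA reads allows a share of up to 0.00193%. Its identical copy Mir19b-1 had 1 read in mESCs and 18 in prospermatogonia. No fold is given for Mir19b-2, which was below 10 RPM in both libraries.

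The order of the members by level was similar at the top and changed below. In mESCs it ran from Mir25 and Mir93 to Mir92-2, Mir363, Mir20b, Mir106a, Mir18b, Mir106b and Mir19b-2. The counting intervals overlapped between Mir92-2 and Mir363, between Mir20b and Mir106a, and between Mir18b and Mir106b. In prospermatogonia Mir106b held place 4 of the 9, above Mir363, Mir20b, Mir106a and Mir18b, whereas it held place 8 in mESCs. There the intervals overlapped between Mir363 and Mir20b and between Mir20b and Mir106a. Mir363, at nearly the level of Mir92-2 in mESCs, was far below it in prospermatogonia.

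The sums of the clusters show the same difference. Mir106b-25 held 2866 reads in mESCs and 5709 in prospermatogonia, 3.20-fold lower per library (3.06 to 3.35). Its share of miRNA reads was 2.59% in mESCs (2.50% to 2.69%) and 3.68% in prospermatogonia (3.59% to 3.77%), 1.42-fold higher (1.36 to 1.48). Its direction thus depends on whether the library or the miRNA reads are taken as the total. The higher share rested on Mir25. Mir106b and Mir93 together held 1128 of 110455 miRNA reads in mESCs and 1459 of 155237 in prospermatogonia, which is no higher share.

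For the Mir106a-363 cluster both totals gave the same direction. It held 2029 reads in mESCs and 1460 in prospermatogonia, 8.87-fold lower per library (8.29 to 9.49). The share of miRNA reads was 1.84% in mESCs (1.76% to 1.92%) and 0.940% in prospermatogonia (0.894% to 0.990%), 1.95-fold lower (1.83 to 2.09). Without Mir92-2 and Mir19b-2, the remaining 4 hairpins held 1330 reads in mESCs and 373 in prospermatogonia, and their share was 1.20% and 0.240%, 5.01-fold lower (4.47 to 5.62). Mir92-2 made up 34.3% of the cluster's reads in mESCs and 74.5% in prospermatogonia, while Mir363 made up 32.4% and 9.73%. All 9 members together held a near-equal part of the miRNA reads, 4.43% for mESCs (4.31% to 4.55%) and 4.62% for prospermatogonia (4.51% to 4.72%), and were 4.36-fold lower per library (4.20 to 4.52).

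**Figure D1:**
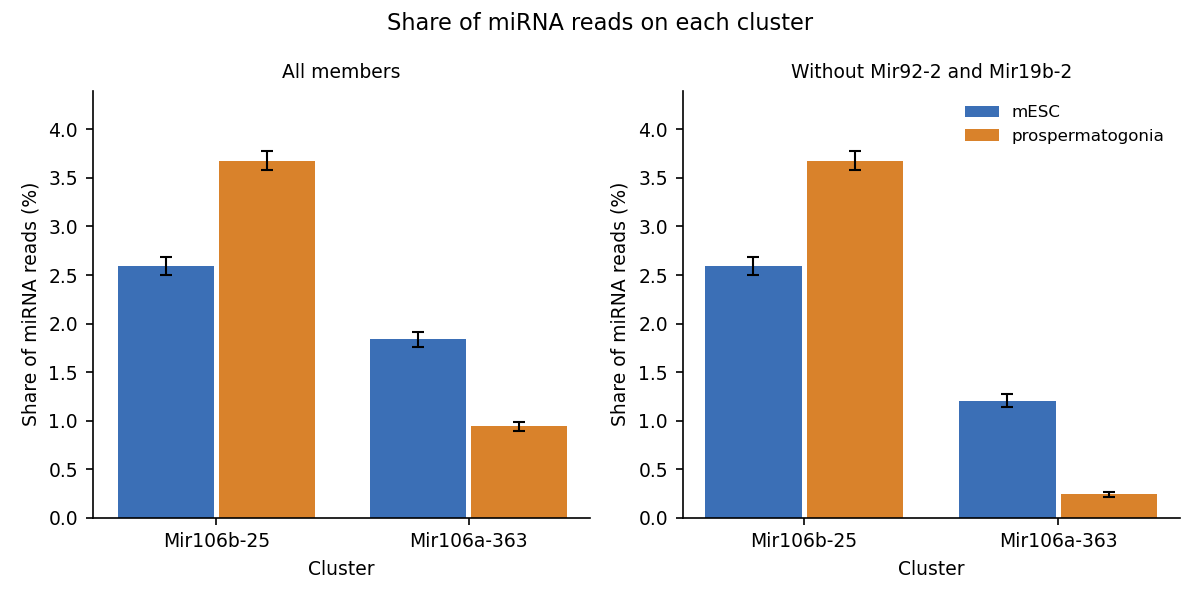
Share of miRNA reads (%) on each cluster in the mESC and prospermatogonia libraries, with all members on the left and without Mir92-2 and Mir19b-2 on the right; bars are single libraries and error bars are 95% Wilson intervals. The share of Mir106b-25 was higher in prospermatogonia (3.68% against 2.59%) and that of Mir106a-363 lower (0.940% against 1.84%), by more without the copies (0.240% against 1.20%).

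The ratio of the clusters within a library does not depend on the total used. In mESCs, Mir106b-25 had 1.41 reads for each read of Mir106a-363 (1.33 to 1.50), and in prospermatogonia 3.91 (3.69 to 4.14). Without Mir92-2 and Mir19b-2 these ratios were 2.15 (2.02 to 2.30) and 15.3 (13.8 to 17.0). In mESCs the order depended on the most abundant hairpins, since without Mir25 and Mir92-2 the ratio was 0.846. In prospermatogonia the ratio without these hairpins was 3.91, as with all members. The Mir17 cluster, as the third paralog, held 5.45% of miRNA reads in mESCs and 19.6% in prospermatogonia, nearly all of the latter on Mir92-1, but per library it was 1.26-fold lower (1.23 to 1.30). Without Mir92-1 and Mir19b-1, its remaining 4 hairpins were 5.89-fold lower per library (5.35 to 6.50), between Mir106b-25 and the 4 hairpins of Mir106a-363 without copies.

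Hairpins with the same seed can be compared directly, again within a library. Between Mir106a-363 and the Mir17 cluster, the ratio of the X-linked hairpin to its counterpart was lower in prospermatogonia in each of the pairs. Mir106a had 0.747 reads for each read of Mir17 in mESCs (0.632 to 0.882) and 0.181 in prospermatogonia (0.144 to 0.227), a 4.13-fold lower ratio (3.12 to 5.47). Mir18b had more reads than Mir18 in mESCs, with a ratio of 1.64 (1.24 to 2.17), and fewer in prospermatogonia, with 0.494 (0.344 to 0.711). Likewise, the ratio of Mir20b to Mir20a was 1.27 in mESCs (1.07 to 1.50) and 0.460 in prospermatogonia (0.363 to 0.584). The ratio of Mir92-2 to Mir92-1, which is open to misassigned reads, was 0.133 and 0.0367.

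Pairs with Mir106b-25 had the same direction. Mir363 had 0.378 reads for each read of Mir25 in mESCs (0.346 to 0.414) and 0.0334 in prospermatogonia (0.0283 to 0.0395), an 11.3-fold lower ratio (9.36 to 13.7). Mir106a had 2.07 reads for each read of Mir106b in mESCs (1.66 to 2.58) but 0.403 in prospermatogonia (0.315 to 0.515), so that the order of this pair turned. The ratio of Mir20b to Mir93 was 0.300 in mESCs (0.264 to 0.341) and 0.0800 in prospermatogonia (0.0652 to 0.0981). Between Mir106b-25 and the Mir17 cluster the pairs had no common direction. The ratio of Mir93 to Mir17 was 3.12 and 2.52, that of Mir106b to Mir20a was 0.490 and 1.03, and that of Mir25 to Mir92-1 was 0.331 and 0.144. The last of these is open to misassigned reads.

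**Figure D2:**
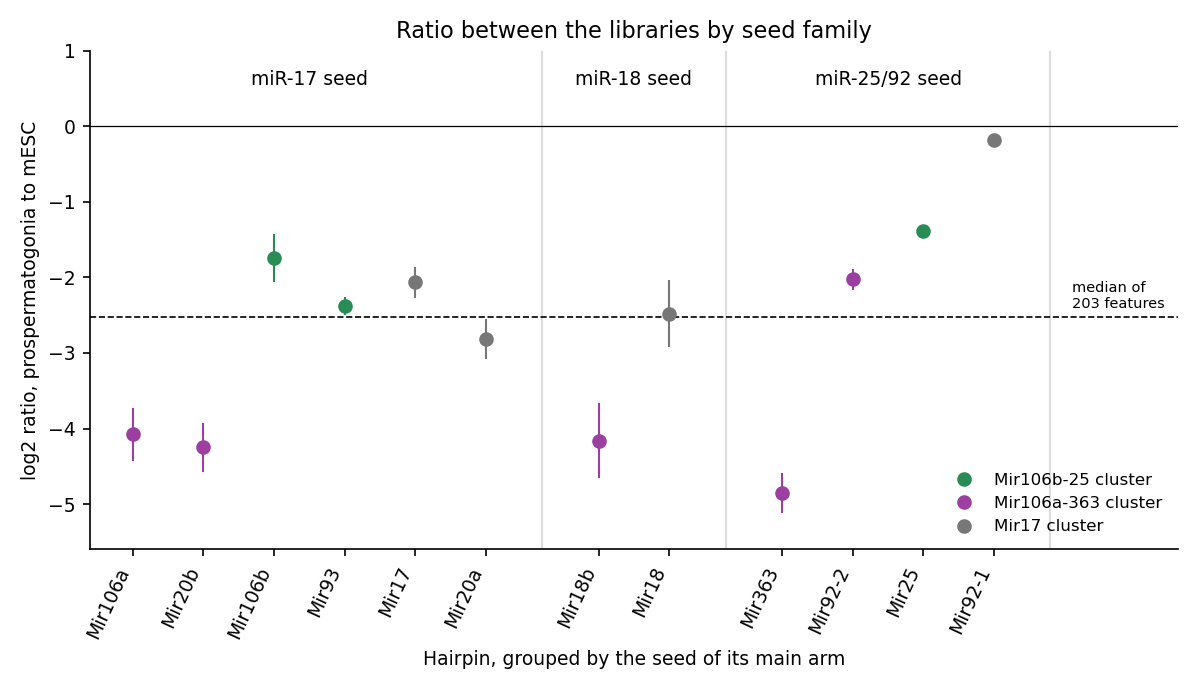
log2((RPM + 1)/(RPM + 1)) of prospermatogonia to mESC for each hairpin, grouped by the seed of its guide arm and coloured by cluster; bars are 95% intervals for counting error only, and the dashed line is the median of -2.52 over 203 features. In the 3 seed families drawn, the hairpins of Mir106a-363 lie below those of the other clusters, Mir92-2 by the smallest margin; in the miR-19 family, left out here, Mir19a (Mir17 cluster) was at -4.18.

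Summed over the features matched to a mature miRNA with the same seed, which need not be every such locus, the families differed in how far they depended on these clusters. The miR-17 family, 6 features of which 4 are members, had 2236 reads in mESCs and 2354 in prospermatogonia, a share of miRNA reads of 2.02% (1.94% to 2.11%) and 1.52% (1.46% to 1.58%). Its level was 6.06-fold lower per library (5.72 to 6.42). Mir106b-25 was its main source in both libraries, giving 50.4% of its mESC reads (48.4% to 52.5%) and 62.0% of those in prospermatogonia (60.0% to 63.9%), most of them from Mir93. The contribution of Mir106a-363 was 24.4% (22.6% to 26.2%) in mESCs and 7.99% (6.96% to 9.15%) in prospermatogonia.

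The miR-18 family had 206 reads in mESCs and 130 in prospermatogonia, 10.1-fold lower per library (8.12 to 12.6), and its share of miRNA reads was 0.187% and 0.0837%. Mir18b gave 62.1% of them in mESCs (55.3% to 68.5%) and 33.1% in prospermatogonia (25.6% to 41.5%), so that the main source of this family was Mir106a-363 in mESCs and the Mir17 cluster in prospermatogonia. The miR-19 family had 138 reads in mESCs and 62 in prospermatogonia, 14.2-fold lower per library (10.5 to 19.1) and a share of 0.125% and 0.0399%. Of these reads Mir19b-2 had 4 and 0. The others were on Mir19b-1 and on Mir19a, which had 133 reads (296 RPM) in mESCs and 44 reads (15.3 RPM) in prospermatogonia. Mir19a was thus 19.3-fold lower per library (13.7 to 27.1), with an interval that overlaps those of Mir106a, Mir18b and Mir20b. A difference of this size was therefore not limited to the Mir106a-363 cluster. The family sum rested mostly on Mir19a, which gave 96.4% of its reads in mESCs and 71.0% in prospermatogonia. How reads shared by the identical Mir19b-1 and Mir19b-2 were assigned is not given.

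The miR-25/92 family was by far the most abundant. Its 7 features, which also include Mir92b, Mir32 and Mir367, had 8700 reads in mESCs and 35800 in prospermatogonia, a share of miRNA reads of 7.88% (7.72% to 8.04%) and 23.1% (22.9% to 23.3%). Per library the direction was the opposite, 1.55-fold lower in prospermatogonia (1.52 to 1.59). Although Mir25 and Mir92-2 did not lose share among all miRNA reads, the members made up less of this family in prospermatogonia, since Mir92-1 alone gave 60.3% of its reads in mESCs and 82.6% in prospermatogonia. Mir25 gave 20.0% in mESCs (19.2% to 20.8%) and 11.9% in prospermatogonia (11.5% to 12.2%). Mir363 gave 7.55% in mESCs and 0.397% in prospermatogonia, and Mir92-2 gave 7.99% and 3.04%. The parts of Mir92-1 and Mir92-2 are open to misassigned reads. Of the features outside the clusters, Mir92b had 355 and 731 reads, with a log2 ratio of -1.63, Mir32 had 7 and 3 reads, and Mir367 of the Mir302 cluster had 4 and 0.

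**Figure D3:**
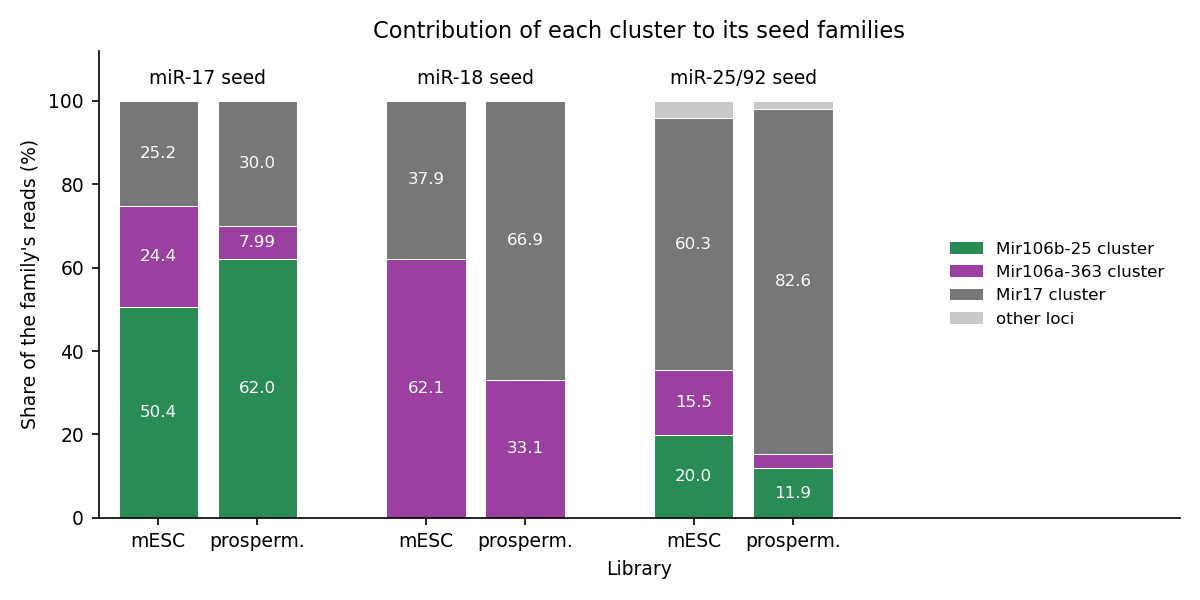
Share (%) of the reads of each seed family that came from each cluster in the mESC library and in the prospermatogonia library (prosperm.); the miR-19 family is left out because its members had 4 reads in all. The part of Mir106a-363 is smaller in prospermatogonia in each of the 3 families, with 24.4% and 7.99% for miR-17 and 62.1% and 33.1% for miR-18.

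Other miRNAs had levels like those of the most abundant members. Over 94 named features outside the 3 clusters with 10 RPM or more in both libraries, the nearest to Mir25 by distance in log2(RPM + 1) over the 2 libraries were Mir148a (distance 0.55), Mir30e (0.64) and Mir298 (0.96). Mir148a had 5624 RPM in mESCs and 1389 RPM in prospermatogonia. The nearest to Mir92-2 were Mir181c (0.75), Mir127 (0.78) and Mir30a (0.80). With only 2 libraries, nearness describes levels and no shared pattern.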

How the data were processed

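The authors prepared small RNA libraries from TriReagent RNA with the Illumina TruSeq kit, excised the cDNA from a gel. The submitters' processing notes name Trim Galore 0.4.1, Bowtie and GRCm38, whereas the study's methods name piPipes and mm9. Positions of all members match GENCODE vM21 on GRCm38, which is used here. The deposited values are log2 values for 1638 miRNA features in each of 2 libraries. They were taken to be log2 RPM, which the study's supplement gives as the unit of its RNA-seq values, with the library as the total. No value shows this directly, and library totals and values per library rest on it, whereas reads and shares of miRNA reads do not. The step from mapped reads to values, the use of strand and the handling of multiple matches are not given in the sources used here.

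Linear values were whole multiples of 1 read within 0.0165 reads. The lowest value corresponds to 0.9 reads and was set to 0 reads. Log2 ratios used a pseudocount of 1 RPM, which understates the change of low features, and a minimum of 10 RPM in at least 1 library. A threshold of 2-fold was used for counts. Fold values are plain ratios of RPM. Shares have 95% Wilson intervals and folds the matching interval for the ratio of reads, for counting error only. The limit that a count of 0 allows is 3 reads (6.67 RPM in mESCs, 1.05 RPM in prospermatogonia). Intervals for the change of a ratio came from the sum of the inverse reads on the log scale. Nothing was tested between the conditions, each with 1 library.

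Sequences came from RefSeq tables (GRCm38.p6), in which 551 of the 1638 features had a mature miRNA by position or by symbol and position. Named were the 9 members, the Mir17 cluster, other carriers of their seeds and, for the highest member of each cluster, the 3 nearest features. For Mir106a-363, the highest member over both libraries was Mir92-2. Features of the lists of cell type markers are named as well. The members and lists were chosen with earlier results of these data known, and Mir92b and the pairs of hairpins were chosen after values were seen. Alternatives were other pseudocounts, scalings, minimums and thresholds, and sums without copies or without the highest feature. The computations were tested on simulated reads. Python 3.11.15, numpy 2.4.6, pandas 2.3.3 and matplotlib 3.10.9 were used.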

Additional observations from a re-analysis of the deposited data

How the results depend on the processing

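Relative to values per library, scaling to the median ratio, to all miRNA reads and to miRNA reads without the 10 highest features shifted log2 ratios by 2.37, 2.18 and 2.26. In this order of scalings, the ratios of Mir106b (0.61, 0.43, 0.50), Mir25 (0.99, 0.80, 0.87) and Mir92-2 (0.34, 0.15, 0.23) turned positive, as did those of the Mir106b-25 sum (0.69, 0.50, 0.58) and the miR-25/92 family (1.74, 1.55, 1.62). Mir93 stayed just below 0, at -0.01, -0.20 and -0.13. Closer to 0 with the same sign were the Mir106a-363 sum (-0.78, -0.97, -0.89) and the families miR-17 (-0.23, -0.42, -0.34), miR-18 (-0.96, -1.15, -1.08) and miR-19 (-1.45, -1.64, -1.56). The features at least 2-fold lower went from 164 to 74, 81 and 78, and those at least 2-fold higher from 20 to 45, 41 and 44.

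Without its highest hairpin the log2 ratio was -2.30 for Mir106b-25, -4.50 for Mir106a-363, -2.81 for miR-17, -2.48 for miR-18, -0.74 for miR-19 and -1.83 for miR-25/92. For Mir106a-363 it was -4.50 without Mir92-2 and Mir19b-2 and -4.16 as the median of its members, and the share without these copies was 1.20% in mESCs and 0.240% in prospermatogonia. The ratio of Mir106b-25 to Mir106a-363 without the copies was 2.15 in mESCs and 15.3 in prospermatogonia. Without the highest hairpin of each cluster it was 0.846 in mESCs and 3.91 in prospermatogonia. When 10 RPM was required of each library, 91 features were lower and 5 higher, and with any read in 1 library 230 were lower and 40 higher. Over 40 alternative values of the members other than Mir19b-2, 16 moved less than their counting error, and all of these were changes of the pseudocount. Under the other scalings, 15 moved by more with the same sign and 9 reversed, so that none stayed within the counting error.

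No paired analysis was possible because mESCs and prospermatogonia had 1 library each, and for the same reason nothing was left out in turn. The cause of each dependence was not tested. Mir19b-2 had at most 4 reads, and its log2 ratio was -3.31 with a pseudocount of 1 RPM, -6.49 with 0.1 and -1.47 with 5. Why it had so few reads was not tested.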

Other observations

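The seed AAGUGCU, which is the miR-17 seed moved by 1 base, belongs to the miR-290 and miR-302 families of pluripotent cells, and miRNAs with either seed can pair with many of the same sites. Its 5 features with a matched sequence (Mir291a, Mir294, Mir295, Mir302b and Mir302d) had 19547 reads in mESCs and 2543 in prospermatogonia, 17.7% (17.5% to 17.9%) and 1.64% (1.58% to 1.70%) of miRNA reads. In mESCs they had 8.74 reads for each read of the miR-17 family (8.37 to 9.13), and in prospermatogonia 1.08 (1.02 to 1.14). Mir295 alone gave 16131 of the reads of these features in mESCs and 1624 in prospermatogonia. Reads of both arms of each hairpin are counted. The guide arm of Mir302a was not matched and is not counted here, and this comparison was chosen after the data were seen.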
